A study of Homo sapiens with 14 samples.

Results

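The promoter regions described here carried H3K27ac, an acetyl mark of active promoters and enhancers, in the list of LX-2 cells grown on a stiff matrix and in no overlapping peak of the soft list. They were chosen by the peak calls of H3K27ac alone, by merging the stiff and the soft H3K27ac lists wherever peaks overlapped by at least 1 bp on the standard chromosomes, and by keeping the merged regions that held a stiff peak, held no soft peak and lay within 1000 bp of a protein-coding transcript start (GENCODE 44, hg19). Of 20403 merged H3K27ac regions, 6437 lay at such promoters, and 580 of these were called on stiff only, against 3599 called on both matrices and 2258 called on soft only. The 580 regions were 9.01% of the promoter regions and 26.2% of the 2215 stiff-only regions anywhere in the genome. Their starts belonged to 672 genes, or 3.39% of all 19794 coding genes.

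LX-2 is a wild-type immortalised human hepatic stellate cell line, and every library came from cells kept on a soft or a stiff matrix for 2 days. CUT&Tag, in which an antibody tethers a transposase to its target and the released fragments are sequenced, was run for H3K27ac, H3K4me3, H3K27me3 and phosphorylated JUN (p-JUN). H3K4me3, H3K27me3 and p-JUN had 2 libraries per matrix, whereas H3K27ac had 1 merged list per matrix, so the choice of these regions has no replicate check. The stiff p-JUN libraries carry TCP in their titles, the abbreviation the study uses for culture plastic, so plastic and stiff matrix cannot be told apart for p-JUN.

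H3K27ac is written by acetyltransferases such as p300 and CBP and removed by histone deacetylases. H3K4me3 marks the starts of active and poised genes, most of all at CpG-rich promoters, while H3K27me3 is the mark of Polycomb silencing. JUN is a subunit of AP-1, a dimer that binds TGACTCA and its reverse complement TGAGTCA, and its phosphorylation by JNK raises its activity. Hepatic stellate cells turn into matrix-producing myofibroblasts in liver fibrosis.

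Short stretches of hg19 show what these regions look like, each read along the strand of its nearest coding gene. The first set holds the AP-1 motif, in capitals, of the 4 regions with the strongest H3K27ac among those with the motif, p-JUN in all 4 libraries and no H3K4me3 (9 regions in all, leaving out STK3 and windows that touch a UTR). They lie at chr3:197445945-197446025, chr11:3744405-3744485, chr19:19516161-19516241 and chr2:225681660-225681740, at RUBCN, NUP98, GATAD2A and DOCK10, where the H3K27ac summit lay in coding sequence for NUP98 and in an intron for the other 3.
RUBCN: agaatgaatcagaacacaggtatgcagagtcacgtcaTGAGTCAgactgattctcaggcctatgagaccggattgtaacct
NUP98: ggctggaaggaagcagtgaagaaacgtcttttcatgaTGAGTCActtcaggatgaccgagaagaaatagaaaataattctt
GATAD2A: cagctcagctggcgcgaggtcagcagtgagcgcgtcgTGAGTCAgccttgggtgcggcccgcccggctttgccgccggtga
DOCK10: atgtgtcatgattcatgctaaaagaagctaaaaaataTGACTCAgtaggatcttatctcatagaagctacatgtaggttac

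The second set is centred on the H3K27ac summit of the 3 strongest regions with H3K4me3 in all 4 libraries, at CHD4 (chr12:6715223-6715342), KHSRP (chr19:6425103-6425222) and TP53I13 (chr17:27896276-27896395), and of the strongest region of all, at ITGB2 (chr21:46348803-46348922). CpG dinucleotides are in capitals. The CHD4 window holds 4 of them, the KHSRP window 8, the TP53I13 window 2 and the ITGB2 window 0.
CHD4: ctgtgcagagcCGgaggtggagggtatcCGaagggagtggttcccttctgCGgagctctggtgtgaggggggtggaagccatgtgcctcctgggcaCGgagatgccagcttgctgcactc
KHSRP: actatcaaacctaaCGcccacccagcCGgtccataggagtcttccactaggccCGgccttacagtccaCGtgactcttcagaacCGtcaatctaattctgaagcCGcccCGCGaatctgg
TP53I13: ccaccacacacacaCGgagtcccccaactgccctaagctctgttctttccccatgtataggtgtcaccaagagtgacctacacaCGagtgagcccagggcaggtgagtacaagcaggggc
ITGB2: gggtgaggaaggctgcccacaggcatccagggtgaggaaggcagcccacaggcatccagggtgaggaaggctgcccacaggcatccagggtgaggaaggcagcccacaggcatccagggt
The ITGB2 stretch is a tandem repeat. In the 300 bp around its summit 77.9% of the 12-base words occurred more than once. A share of at least 20% was found at 4 of 579 stiff-only regions (ITGB2, GRSF1, NBPF12 and KRTAP4-11), at 13 of 3598 regions shared by both matrices and at 7 of 2255 soft-only regions. How reads from such repeats were placed is not given in the sources used here, and the part of the repeat in the ITGB2 value was not tested.

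H3K27ac at these regions was modest, which follows in part from the rule and is given as a description. On stiff the enrichment of the summit over local background had a median of 6.10-fold, with a range from 2.77 to 11.1. The peak caller's −log10 q had a median of 9.07 and ran from 5.07 to 60.5, whereas at promoters shared by both matrices it had a median of 12.6 on stiff and 15.5 on soft, and at soft-only promoters 10.2 on soft. The fragment number under each summit was recovered from fold and p, and had a median of 19 at the 578 regions where this was possible, against 25 on stiff at the shared promoters. The regions were also narrow, with a median width of 341 bp, against 663 bp for the shared promoters and 367 bp for the soft-only promoters.

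The fragments of the soft library are known only where a soft peak was called. The size of the difference at these regions is therefore not known. The soft background there is not known either, and no scaling for depth was made. At the shared promoters the background had a median of 3.17 fragments on soft and 2.82 on stiff. At the stiff background of each region, a summit on soft would have entered the soft list with a median of 14 fragments. The stiff summit exceeded that number by a median factor of 1.32, by at least 1.5 at 129 of 578 regions (22.3%) and by at least 2 at 7. The stiff list is the shorter of the pair, with 13322 peaks against 18238. When both lists were cut to equal length by q, 1141 promoter regions were called on stiff only, and when peaks had to overlap by 50% of both, 1201. A threshold of 10 on −log10 q in the stiff list left 206.

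**Figure D1:**
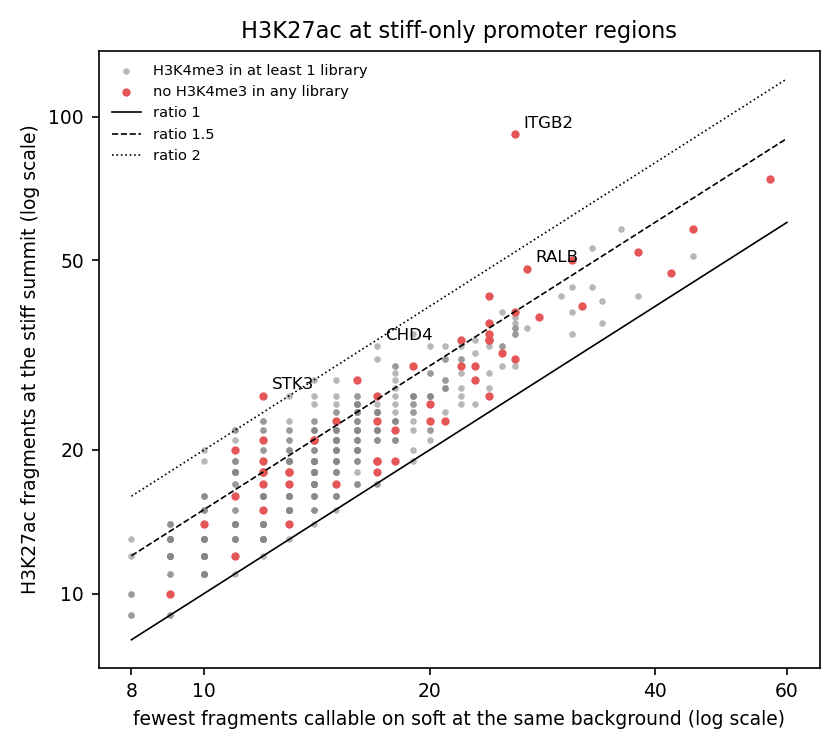
Fragments under the H3K27ac summit on stiff (vertical axis, log scale) against the fewest fragments that would have been called on soft at the same local background (horizontal axis, log scale), 1 point per stiff-only promoter region (578 regions). Lines mark ratios of 1, 1.5 and 2, and red points are regions with no H3K4me3 in any library. Most points lie between the lines for 1 and 1.5, and ITGB2, at 92 fragments against 26, lies farthest above them.

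The edges of the rule show how closely members and non-members resembled each other. Just inside the 1000 bp limit lay COL5A1 at 996 bp, PISD at 989 bp and FOXN2 at 986 bp from a start, and just outside lay NONO at 1005 bp, MAFK at 1013 bp and PDHB at 1015 bp. The weakest regions in the list, at GLT8D1 and SPCS1, at SGTA and at DHRS11, had −log10 q of 5.07, 5.07 and 5.17, and among the weakest soft peaks that made a promoter shared, those at TBRG4 and SEPTIN7 had 5.32 and 5.51. The region at MIGA1 ended 1 bp from a soft peak, and those at MXRA8 and ATOSA 2 bp from one. The median distance to the nearest soft peak was 23567.5 bp, and 406 of the 580 regions lay over 10 kb away.

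Being acetylated on stiff only was a property of the region and not always of the gene. At 89 of the 580 regions a soft H3K27ac peak stood within 1000 bp of the same start, and 491 had none there. Of the 672 genes, 172 had a soft peak at 1 of their starts and 500 (74.4%) had none. A single gene was served by 487 regions and several genes by 93, and 82 regions had starts on both strands. RALB, a Ras-like GTPase, had a pair of regions at separate starts. The region covered a start in 231 cases (39.8%), against 75.5% of the longer shared regions and 53.0% of the soft-only regions. The summit lay in an intron in 50.9% of cases, in a UTR in 20.3%, upstream or between genes in 19.3% and in coding sequence in 9.48%. Its median distance from the nearest start was 224 bp, against 157 bp for shared and 180 bp for soft-only regions.

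**Figure D2:**
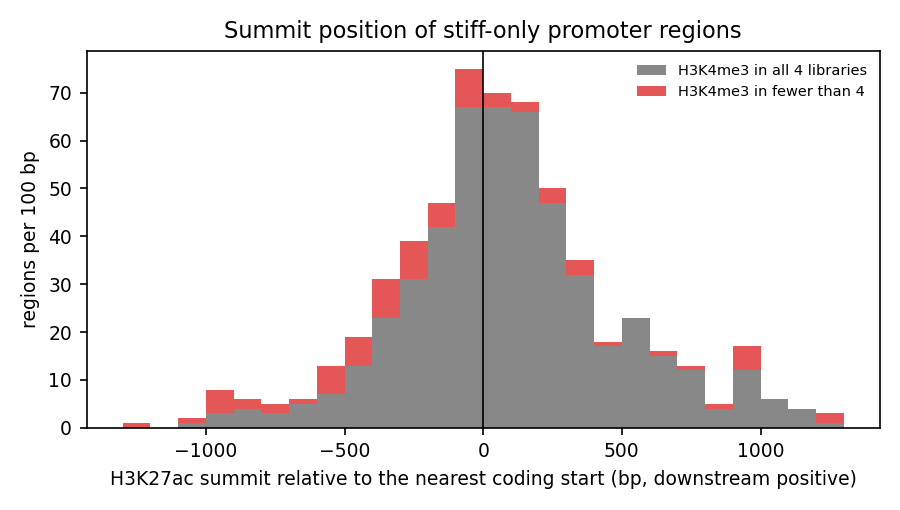
Distance of the H3K27ac summit from the nearest coding start for the 580 stiff-only promoter regions, in bins of 100 bp with downstream positive, stacked by H3K4me3 state. Summits gather around the start, and the 75 regions without H3K4me3 in all 4 libraries (red) stand in larger proportion upstream.

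The 10 regions with the highest −log10 q held genes of varied roles. ITGB2, the beta subunit of the leukocyte integrins, led at 60.5 with 92 fragments, where the second, STK3, a Hippo pathway kinase also known as MST2, had 20.3 with 26 fragments. The others were RALB at 18.2, CHD4, the ATPase of the NuRD complex, at 18.2, the RNA-binding protein KHSRP at 18.1, TP53I13 at 17.6, the adhesion protein MXRA8 at 17.4, HNRNPAB, which binds RNA, at 17.0, the proteasome subunit PSMD7 at 17.0 and CSTF2T, which acts in 3′ end formation of mRNA, at 16.7. The ITGB2 region (chr21:46348702-46349123) lay in an intron over an alternative start, 663 bp from a soft peak. Of these 10 regions, 4 (ITGB2, STK3, RALB and MXRA8) had no H3K4me3 peak, and 7 had p-JUN in all 4 libraries.

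H3K4me3 was present on both matrices at nearly all of these promoters. A peak overlapped 505 of the 580 regions (87.1%) in all 4 libraries, and the share was 91.2% over all 6437 promoter H3K27ac regions. By library, 87.8% and 89.1% of the regions were overlapped on soft and 88.8% and 89.7% on stiff. The soft libraries had a mean of 88.4% ± 0.975 (SD, n = 2), and the stiff libraries one of 89.2% ± 0.610 (SD, n = 2). The ranges overlapped, and the difference of 0.776 percentage points had p = 0.667 in a 2-sided exact permutation test, whose smallest possible p with 2 libraries against 2 is 0.333. The shared promoters differed by 0.5001 points and the soft-only promoters by 0.576 points in the same direction. The study's methods call the sequencing replicates biological, and how the cultures were separated is not given in the sources used here.

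H3K4me3 calls parted the matrices at 5 regions. A call needed a peak that shared at least 1 bp with the region itself, so a peak ending just outside it was not counted. With peaks within 1 kb of the region, the difference in share was 0.0 points. It was called in both stiff and neither soft library at EPS8, an actin regulator, with folds of 8.15 and 5.49, at MACF1, which links actin to microtubules, with 3.45 and 3.00, and at PCBP1, an RNA-binding protein, with 8.70 and 8.85. It was called in both soft and neither stiff library at HHIPL2, with 7.82 and 7.29, and at RHOT1, a mitochondrial GTPase, with 6.51 and 7.72. The shares, 0.517% and 0.345%, stand beside 0.373% and 0.124% over all promoter H3K27ac regions. A further 16 regions had the mark in some libraries of one or both matrices.

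A smaller group of 54 regions (9.31%, against 6.20% of all promoter H3K27ac regions) had no H3K4me3 in any library. Their 300 bp windows had a median GC content of 51.3%, where the other 526 had 63.3%, and a median ratio of observed to expected CpG of 0.216 against 0.722. The AP-1 motif was found in 22.2% of them and in 6.08% of the others. Their H3K27ac was not the weakest of the set, with a median of 24 fragments against 18 at regions with H3K4me3 in all 4 libraries, and their summits lay farther from a start, at a median of 404 bp against 207 bp. The RUBCN, NUP98, GATAD2A and DOCK10 stretches printed above belong to this group. RUBCN, a regulator of autophagy, had p-JUN folds of 12.7 and 12.5 on soft against 12.6 and 13.2 on stiff, and NUP98, a nuclear pore protein, had 12.5 and 12.2 on soft against 11.1 and 13.6 on stiff. GATAD2A, a subunit of NuRD, had 10.8 and 10.4 on soft against 11.2 and 11.7 on stiff. Among these 3 genes the stiff folds overlapped the soft ones at RUBCN and NUP98 and lay above them at GATAD2A. Of the 54, 32 had p-JUN in all 4 libraries and 7 in none.

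p-JUN was found at most of these regions, at shares that did not differ between soft and stiff beyond the spread between libraries. It overlapped 311 regions (53.6%) in all 4 libraries and 114 (19.7%) in none, where over all promoter H3K27ac regions the shares were 70.8% and 11.0%. The shared promoters, whose regions are longer, had it in all 4 libraries in 81.5% of cases and the soft-only promoters in 58.2%. By library, 71.7% and 67.1% of the regions were overlapped on soft and 60.2% and 72.4% on stiff. The stiff libraries thus lay below and above both soft libraries. The soft libraries had a mean of 69.4% ± 3.29 (SD, n = 2), the stiff libraries one of 66.3% ± 8.66 (SD, n = 2), and the difference of -3.10 points had p = 1.0 in the 2-sided exact permutation test. Without the first stiff library, which had the fewest overlaps, the difference was 3.02 points. Promoters shared by both matrices differed by -3.13 points and soft-only promoters by -4.38 points.

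**Figure D3:**
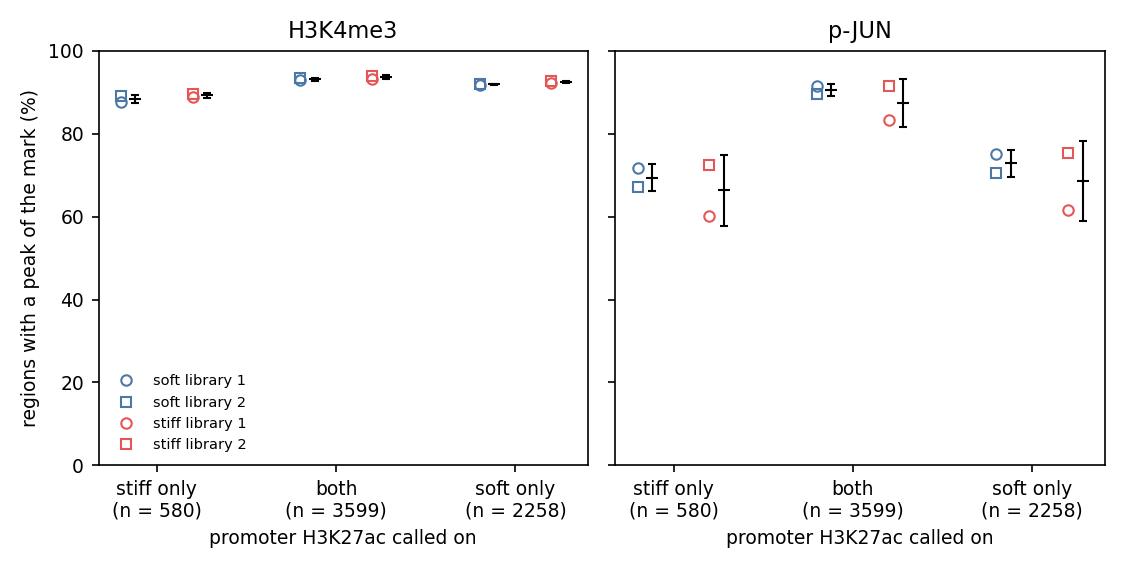
Share of promoter H3K27ac regions (%) that held an H3K4me3 peak (left) or a p-JUN peak (right), by the matrix on which H3K27ac was called. Open symbols are libraries and black bars the mean ± SD of 2 libraries. Soft and stiff libraries lie within 2 points of each other for H3K4me3, while the first stiff p-JUN library (60.2% at stiff-only regions) lies below the others in every class.

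p-JUN calls parted the matrices at 17 regions, where again only peaks that overlapped the region itself were counted. In 6 of them (1.03%, against 0.249% of all promoter H3K27ac regions) p-JUN was called in both stiff and neither soft library. They included SFI1, a centrin-binding protein, with stiff folds of 7.62 and 6.83, the autophagy gene BECN1 with 4.14 and 4.28, the ubiquitin ligase HERC1 with 5.50 and 8.18, the mitochondrial RNA polymerase POLRMT with 4.89 and 5.63 and the thymidine kinase TK2 with 2.54 and 2.30. SFI1 and POLRMT held the AP-1 motif, and SFI1, BECN1 and TK2 had no H3K4me3.

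The opposite pattern, p-JUN in both soft and neither stiff library, held at 11 regions (1.90%, against 1.23%). RPS6, a ribosomal protein, had soft folds of 6.91 and 8.63, ZSCAN12 had 5.80 and 6.47, and the mitotic kinesin KIF11 had 6.15 and 4.29. The others were at USP21, FOXA3 with SYMPK, RNF32, DUSP15 with TTLL9, GTPBP3, CCNO, SPATA13 and the clamp loader subunit RFC2. All 11 had H3K4me3 in all 4 libraries. A further 138 regions had p-JUN in 1 to 3 libraries in other combinations, and 106 of these lacked it in the first stiff library.

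H3K27me3 overlapped 0 of the 580 regions in each of the 4 libraries. If the regions are taken as independent draws, a count of 0 allows a share of up to 0.517%. That limit does not cover the spread between libraries. Over all 6437 promoter H3K27ac regions 99.8% had none. Within 1 kb a single region had an H3K27me3 peak, at DUSP15 and TTLL9 in the first soft library.

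The height of the marks was compared at the regions called in all 4 libraries, after each library was centred on the median log2 fold of all such regions. H3K4me3 regions holding a stiff-only region numbered 508 of 16098. Their median fold was 8.93 and 9.20 on soft against 9.63 and 9.49 on stiff, and the median over all H3K4me3 regions moved the same way, from 8.58 and 8.87 to 9.09 and 9.29. After centring, the medians were 0.057 and 0.053 on soft against 0.083 and 0.030 on stiff on the log2 scale. The difference of 0.002 had an exact permutation p of 1.0, and the stiff values lay on either side of the soft ones. The p-JUN regions numbered 333 of 40433. Their median fold was 7.46 and 7.51 on soft against 6.96 and 7.92 on stiff, so the stiff libraries lay on either side of the soft ones (log2 difference -0.012, exact permutation p = 1.0). Their centred medians were -0.225 and -0.206 on soft against -0.300 and -0.243 on stiff, a difference of -0.056 (exact permutation p = 0.333, the smallest this design allows). Both stiff libraries lay below both soft ones, and so they did at the shared promoters, with a difference of -0.057, and at the soft-only promoters, with -0.061. Centred on the shared promoters instead, the difference was 0.0007.

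**Figure D4:**
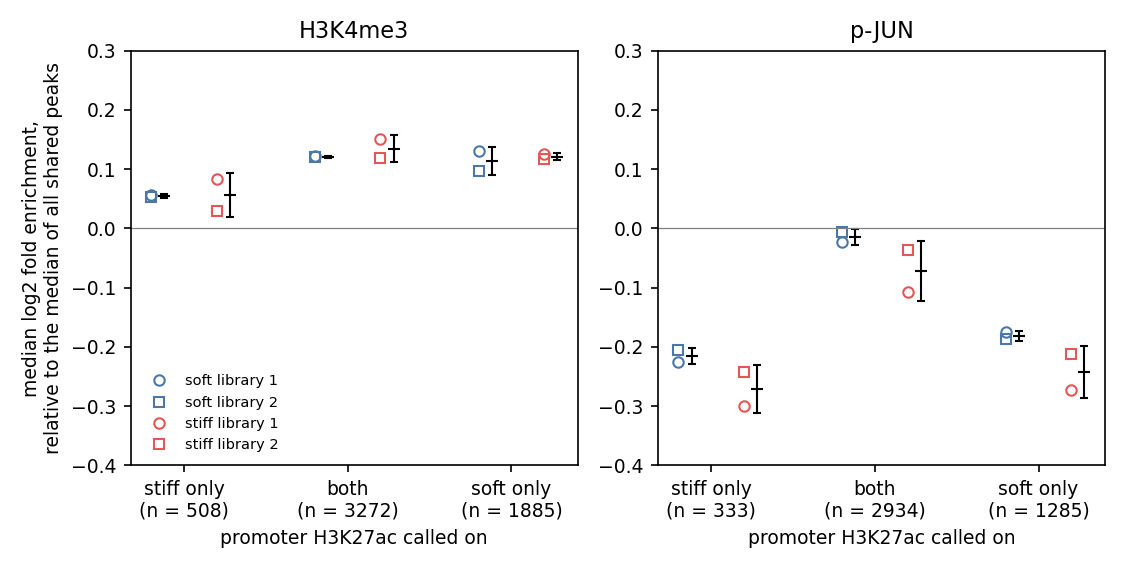
Median log2 fold enrichment of H3K4me3 (left) and p-JUN (right) peaks at promoters, relative to the median of all peaks called in all 4 libraries, by the matrix on which promoter H3K27ac was called. Open symbols are libraries, and black bars the mean ± SD of 2 libraries. The step from soft to stiff at stiff-only promoters (-0.056 for p-JUN) matches in direction that at shared (-0.057) and soft-only promoters (-0.061).

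No single region passed the test across all regions. On simulated data the same test found 140 of 200 H3K4me3 regions changed by log2 1, but 0 of 200 p-JUN regions. With limma and Benjamini-Hochberg adjustment on log2 fold, 0 of 16098 H3K4me3 regions (0.0%) and 0 of 40433 p-JUN regions (0.0%) had an adjusted p under 0.05, and 1607 (9.98%) and 3773 (9.33%) had an unadjusted p under 0.05. Of the regions with a stiff-only promoter, 28 of 508 and 21 of 333 did so. After centring, both stiff folds lay above both soft folds at 104 of the 508 H3K4me3 regions (20.5%) and below them at 106 (20.9%), where over all H3K4me3 regions the shares were 19.3% and 22.4%. For p-JUN 44 of 333 were above (13.2%) and 74 below (22.2%), against 18.5% and 21.2% over all p-JUN regions. At the shared promoters 11.3% were above and 23.9% below.

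The H3K4me3 regions with the largest differences among those whose libraries did not overlap were mostly higher on stiff. At SECISBP2, which serves selenoprotein synthesis, the fold was 5.94 and 4.67 on soft against 6.80 and 8.34 on stiff, a log2 difference of 0.44 ± 0.15 (SE), with a limma adjusted p of 0.467. ABRAXAS2, a subunit of a deubiquitinating complex, had 12.5 and 8.97 on soft against 13.6 and 14.8 on stiff, and ANKRD37 with LRP2BP had 9.08 and 9.75 on soft against 12.6 and 12.6 on stiff. SPHK2, a sphingosine kinase, was lower on stiff, at 5.91 and 4.45 against 6.82 and 7.74, with a log2 difference of -0.58 ± 0.15 (SE) and a limma adjusted p of 0.394.

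At BCL2L2 with PPP1R3E the folds of both marks were higher on stiff. BCL2L2 encodes the survival protein BCL-W. H3K4me3 there had folds of 4.13 and 3.78 on soft against 5.17 and 5.47 on stiff, and p-JUN had 5.56 and 5.87 on soft against 7.83 and 7.96 on stiff. The p-JUN difference in fold was 0.42 ± 0.12 (SE) on the log2 scale, with a limma adjusted p of 0.416. The p-JUN fragments under the summit were not higher, at 55 and 49 on soft against 51 and 49 on stiff. The p-JUN fold was also higher on stiff at the histone genes H3C11 and H4C13, at 5.03 and 4.35 against 6.10 and 7.08. Near-identical histone copies may share reads there. At the ribosomal gene RPLP1 the p-JUN fold was lower on stiff, at 9.12 and 9.59 on soft against 5.79 and 7.72 on stiff. The log2 difference was -0.53 ± 0.13 (SE), with a limma adjusted p of 0.357. ZNF331 and FBXO42 were lower too, with log2 differences of -0.49 and -0.41.

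When the fragments under the summit replaced fold, which divides by local background, the same limma fit called many regions. For H3K4me3 it called 16 regions with a stiff-only promoter higher on stiff and 6 lower, against 2.29% and 2.17% of all H3K4me3 regions. H2AC19, a histone gene with near-identical copies, had 199 and 225 fragments on soft against 364 and 536 on stiff, and CHN1, which encodes a Rac GTPase-activating protein, had 59 and 84 on soft against 48 and 55 on stiff. Quantile normalization left 1 higher and 1 lower, and the replicate block 1 and 0. Without single libraries the counts were 39 and 7 (first soft), 27 and 7 (second soft), 10 and 3 (first stiff) and 5 and 3 (second stiff). For p-JUN it called 5 higher and 33 lower, against 6.16% and 7.38% of all p-JUN regions, and the shared promoters had 25 higher and 396 lower of 2934. The counts were 0 and 12 without the first soft library, 0 and 4 without the second, 4 and 25 without the first stiff library and 3 and 42 without the second. SQSTM1, the autophagy receptor p62, had 218 and 195 p-JUN fragments on soft and 121 and 159 on stiff, and NFASC, a cell adhesion protein of neurons, had 34 and 33 on soft against 58 and 55 on stiff. Without a trend of variance on signal, 0 of the stiff-only promoter regions were called for either mark. An unadjusted limma p under 0.05 was found at 69 of 508 for H3K4me3 and 68 of 333 for p-JUN. Over all regions it was found at 3106 of 16098 for H3K4me3 and 9347 of 40432 for p-JUN. The direction at single regions was therefore not settled by these libraries.

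The 5 regions with the highest mean p-JUN fold had peaks in all 4 libraries. GLO1, the methylglyoxal-detoxifying glyoxalase, had 16.02 and 15.30 on soft against 15.28 and 16.21 on stiff. ARRDC4, an arrestin-domain protein, had 14.22 and 14.27 on soft against 15.05 and 15.13 on stiff, and its region held the AP-1 motif. TTC19 with ZSWIM7 had 14.70 and 14.77 on soft against 13.58 and 16.03 on stiff. POLR2M, a subunit of an RNA polymerase II complex, had 14.35 and 13.86 on soft against 14.87 and 15.52 on stiff, and DCAF13 with SLC25A32 had 14.45 and 16.14 on soft against 13.46 and 14.03 on stiff. Before centring, the stiff libraries lay above the soft ones at ARRDC4 and POLR2M, below them at DCAF13 and on either side of them at GLO1 and TTC19, and none of these differences passed the limma test (adjusted p from 0.524 to 0.922).

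The AP-1 motif was found in 44 of the 580 regions (7.59%, Wilson 95% interval 5.70 to 10.03%), searching both strands. The same regions moved by 10 kb held it in 5.69%. The looser TGANTCA was found in 9.31% of the regions and in 9.66% when they were moved by 10 kb. In 300 bp windows around the summit, TGACTCA or TGAGTCA was found in 6.38% of stiff-only, 8.72% of shared and 5.85% of soft-only regions. Windows at all coding starts held it in 3.60%. Regions with the motif had p-JUN in all 4 libraries in 79.5% of cases and those without it in 51.5%. Of the 44, 35 thus held both. Within 50 bp of the H3K27ac summit TGACTCA or TGAGTCA was found in 2.07% of regions. Over whole regions it was found in 13.1% of those with −log10 q of at least 10. Base composition otherwise resembled that of other acetylated promoters, with a median GC content of 62.7% against 62.3% at shared and 63.7% at soft-only promoters.

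Genes of known roles in stellate cells were looked up from lists. Of 462 genes on lists of matrix, adhesion, contraction, signalling, cell cycle and marker genes, 24 had a stiff-only promoter region (5.19%, beside 3.39% of all coding genes), through 25 regions. H3K4me3 was present in all 4 libraries at 19 of these 25 regions and p-JUN at 15. Over all 580 stiff-only promoter regions the shares were 87.1% and 53.6%, and over all promoter H3K27ac regions 91.2% and 70.8%. The lists were chosen with earlier results of these data known, so their counts are descriptions.

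Among 41 matrix collagens, proteoglycans and glycoproteins, 4 had a stiff-only region (9.76%, beside 3.39% of all coding genes): COL1A1, COL5A1, COL6A1 and COL12A1. None of these 4 had a soft peak at any start. Of the 41, more genes had a soft-only region, namely 7, and 5 had one called on both matrices. Among all 19794 coding genes these counts were 2488 and 4143. COL1A1, the main chain of fibrillar type I collagen, had 42 H3K27ac fragments on stiff, where 30 would have been called on soft at the same background. Its H3K4me3 folds were 6.57 and 7.24 on soft against 7.40 and 7.07 on stiff, and p-JUN was 4.34 and 3.98 on soft, with no peak overlapping the region in the first stiff library and 4.19 in the second. The wider p-JUN region around it was called in all 4 libraries, with 3.36 in the first stiff library. COL12A1 had p-JUN in all 4 libraries, at 6.81 and 6.51 on soft against 6.80 and 7.70 on stiff, whereas COL6A1 had none and, with 16 fragments against 15, lay at the edge of the call. Of 37 matrix remodelling genes 0 had a stiff-only region, and of 52 actin and contraction genes 1 did. That was MYH10, nonmuscle myosin IIB, with p-JUN of 11.5 and 11.8 on soft against 12.3 and 12.7 on stiff. After centring, its stiff and soft libraries overlapped.

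Among 35 integrin and focal adhesion genes, 5 had a stiff-only region (14.3%, beside 3.39% of all coding genes), and 4 of them had no soft peak at any start. A soft-only region was found at 7 of the 35 and one called on both matrices at 5. ITGB1, the beta 1 integrin that pairs with most collagen-binding alpha chains, had 29 H3K27ac fragments, where 20 would have been called on soft at the same background. Its H3K4me3 was 3.85 and 3.52 on soft against 4.90 and 4.33 on stiff, a log2 difference of 0.25 ± 0.11 (SE) with a limma adjusted p of 0.526. ITGA2, the collagen receptor alpha 2, had 14 fragments against 13 and H3K4me3 folds of 7.85 and 8.27 on soft against 10.1 and 9.53 on stiff, with a log2 difference of 0.21 ± 0.08 (SE) and a limma adjusted p of 0.492. In both genes the stiff libraries lay above the soft ones. DDR2, a collagen receptor kinase, had no H3K4me3 at its region and p-JUN in all 4 libraries, at 5.27 and 5.52 on soft against 4.06 and 5.26 on stiff. ZYX, the focal adhesion protein zyxin, had p-JUN of 10.36 and 10.02 on soft against 10.3 and 11.8 on stiff. ITGB2 had 8.48 and 7.55 on soft against 7.76 and 7.92 on stiff, so that its p-JUN overlapped between the matrices.

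**Figure D5:**
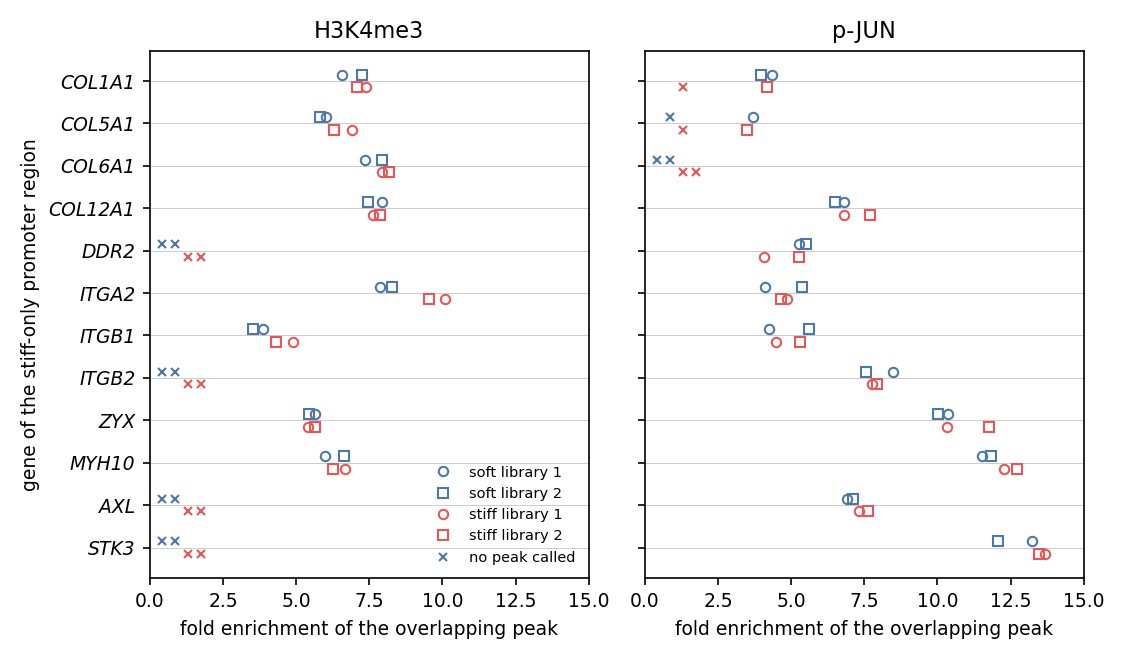
Fold enrichment (horizontal axis) of the H3K4me3 peak (left) and p-JUN peak (right) that overlapped the stiff-only region of 12 matrix, adhesion, contraction and YAP pathway genes, 1 symbol per library. Crosses near the left edge mark libraries with no overlapping peak, soft in blue and stiff in red, and their horizontal place has no value. ITGA2 and ITGB1 are higher on stiff for H3K4me3, and DDR2, ITGB2, AXL and STK3 have p-JUN without H3K4me3.

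Of 24 YAP and TAZ pathway genes, 2 had a stiff-only region (8.33%, beside 3.39% of all coding genes) and 6 a soft-only region. STK3 had p-JUN of 13.2 and 12.1 on soft against 13.7 and 13.5 on stiff. AXL, a receptor kinase and YAP target, had 6.90 and 7.12 on soft against 7.32 and 7.64 on stiff. After centring, the stiff libraries overlapped the soft ones at both genes. Both regions lacked H3K4me3. Of 32 TGF-beta and SMAD genes 3 had a stiff-only region (9.38%) and 2 a soft-only region. The 3 were the receptors TGFBR1 (through 2 regions) and ACVR1B and the corepressor TGIF1. Of 23 AP-1 family genes 1 had a stiff-only region (4.35%), MAFG, whose region had neither H3K4me3 nor p-JUN. Of 51 MAP kinase genes 2 did (3.92%), MAPK14, which is p38 alpha, and MAPK6. Of 31 inflammatory genes 2 did (6.45%), NFKB2 and HLA-B, which shares sequence with other HLA genes. Of 44 cell cycle genes 2 did (4.55%), CCNA2 and CDKN2A. Of 41 histone acetylation genes 2 did (4.88%), the deacetylases HDAC1 and HDAC7. Of 29 quiescence and lipid genes 0 did, and 25 of them had no promoter H3K27ac on either matrix.

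Larger gene families were counted beside the 3.39% of all coding genes, with no test made. Ribosomal protein genes had 7 of 82 (8.54%) and replication-dependent histone genes 6 of 71 (8.45%). The families also differ in how many genes had no promoter H3K27ac on either matrix. These were 20 ribosomal and 49 histone genes, and 12953 of all 19794 coding genes. Mitochondrial ribosome and respiratory chain genes had 9 of 181 (4.97%), RNA processing genes 7 of 154 (4.55%) and zinc finger genes 25 of 562 (4.45%), all near the share of all genes. HOX genes had 0 of 39 and olfactory receptors 0 of 391, but 35 and 391 of these had no promoter H3K27ac on either matrix. Of 10 stellate cell and myofibroblast markers 7 carried H3K4me3 in all 4 libraries at a start, beside 12431 of all 19794 coding genes. Of these 10 markers 1, COL1A1, had a stiff-only region. H3K4me3 in all 4 libraries was found at 0 of 5 hepatocyte, 2 of 5 cholangiocyte and epithelial, 1 of 4 endothelial and 0 of 5 leukocyte markers, and 1 leukocyte marker had promoter H3K27ac on both matrices. None of the hepatocyte, epithelial, endothelial or leukocyte markers had a stiff-only region.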

How the data were processed

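CUT&Tag peak lists of 14 LX-2 samples were analysed: 1 H3K27ac list per matrix, and 2 libraries per matrix for H3K4me3, H3K27me3 and p-JUN. Groups follow the treatment labels. The authors used Trim Galore for trimming, Bowtie2 for alignment to hg19, Picard for duplicates and MACS2 for peaks (options and version not given in the sources used here). Each deposited peak holds a score, a fold ratio of summit over local background, −log10 p and −log10 q, and other values such as the summit position. Depth per library is not given; the lowest local background, in fragments, was 0.491 on soft and 0.508 on stiff for H3K27ac, and 1.10 to 2.62 for H3K4me3 and p-JUN libraries. Lists held peaks with −log10 q of at least 5.0 (H3K27me3, broad peaks: 1.31).

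Members and gene lists were chosen with earlier results of these data known. Lists were merged (1 bp), starts taken from GENCODE 44 and sequence from hg19. Fragments under a summit (k) were solved from fold = (k + 1) / (λ + 1) and the Poisson p, with λ the local background, and gave whole numbers within a relative error of 0.0001 for at least 99.9% of peaks. The fewest callable on soft is the smallest k that reaches, at the λ of the region on stiff, the lowest −log10 p of the soft list, 7.53. Shares and median heights were compared with exact permutation tests over 4 libraries, and log2 fold of regions called in all 4 libraries with limma (eBayes with trend, Benjamini-Hochberg), centred on each library's median. Same-numbered libraries did not deviate together (correlation -0.05 for H3K4me3 and 0.005 for p-JUN). On simulated data the merging step found 200 of 200 planted regions. For H3K4me3 limma found 140 of 200 regions changed by log2 1 and 187 of 200 by log2 2, and for p-JUN 0 of 200 and 171 of 200. The simulated spread was drawn at random across regions, so it did not follow signal, which the trend in the fit models. Named regions were those with the 10 highest −log10 q, at the edges of the rule, with calls that parted the matrices, with the largest non-overlapping differences, with the 5 highest mean p-JUN folds, and at listed genes. BCL2L2 entered under both marks; SQSTM1, NFASC, H2AC19, CHN1 and the repeat regions were named after their values were seen. Values of 2 regions that these rules name are not reported here. Software was Python 3.11.15, R 4.3.3 and limma 3.58.1.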

Additional observations from a re-analysis of the deposited data

How the results depend on the processing

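The number of stiff-only promoter regions stayed within 1.5 times of 580 under 6 of 9 alternatives, and came to 1201 with reciprocal overlap of 50%, 1141 with lists of equal length and 206 with −log10 q of at least 10 in the stiff list only. The H3K4me3 share difference was 0.0 points with peaks within 1 kb and ran from 0.086 to 1.47 without single libraries. The p-JUN share difference ran from -9.22 to 3.02 without single libraries, and reversed, to 3.02, without the first stiff library; the cause was not tested. H3K27me3 gave -0.086 points with peaks within 1 kb and 0.0 without single libraries. The H3K4me3 height difference, 0.002, reversed to -0.012 centred on the shared promoters, -0.046 at members with −log10 q of at least 10 and -0.0008 with summits within 1 kb, and ran from -0.024 to 0.028 without single libraries; all these lie near 0 and the cause was not tested. The p-JUN height difference became 0.0007 centred on the shared promoters, and ran from -0.085 to -0.028 without single libraries.

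With limma on fold and single libraries left out, H3K4me3 had 0 to 1 calls and p-JUN 0 to 23, and a replicate block gave 41 for p-JUN, none of them at stiff-only promoters. The numbers do not pair the libraries, and with fold the replicate block left the H3K4me3 count at 0. With 2 libraries against 2, a block cannot change a difference of means. The share differences (0.776, -3.10 and 0.0 points) and height differences (0.002 and -0.056) are therefore the same by arithmetic, and the block gives no check of them. Fragments in place of fold, chosen after seeing the data, called 718 H3K4me3 and 5475 p-JUN regions. Quantile normalization of fragments gave 101 and 3839, no variance trend 10 and 0 (9347 p-JUN regions had an unadjusted p under 0.05), the replicate block 95 and 6082, and leaving out soft 1, soft 2, stiff 1 or stiff 2 gave 1137, 1029, 488 and 274 for H3K4me3 and 1593, 1415, 5352 and 4107 for p-JUN; the cause was not tested. The AP-1 motif share was 2.07% within 50 bp of the summit, a shorter window, and 13.1% at members with −log10 q of at least 10. With 1 H3K27ac list per matrix, median 19 fragments and no total depth, differences in H3K27ac below the calling threshold of the soft list were not detectable.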
